A study of Mus musculus with 9 samples.

Results

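The heat shock and Hsp90 genes described here are 10 genes chosen by symbol, of 25239 gene names listed. They are *Hsp90aa1*, *Hsp90ab1*, *Hspa8*, *Hspa1a*, *Hspa1b*, *Hspa5*, *Hspb1*, *Hsph1*, *Dnajb1* and *Hsf1*, and each filled 1 row in every library's table. They were measured by strand-specific bulk RNA-Seq of whole retinas of C57BL/6J mice at postnatal day 42 (P42). The 9 libraries came from 3 wild-type mice (+/+), 3 mice with 1 knock-in allele (Rbpms-CreERT2/+, here Cre/+) and 3 mice with 2 (Rbpms-CreERT2/CreERT2, here Cre/Cre), each library from a pair of retinas. The knock-in places the sequence of the self-cleaving peptide P2A and of CreERT2 in frame at the end of the coding sequence of *Rbpms*, so that the *Rbpms* promoter drives CreERT2, mainly in retinal ganglion cells. Ganglion cells are a small share of the cells of a whole retina, and RNA of all its cells was measured together. The line was bred to C57BL/6J from gene-edited founders, and neither the labels nor the methods name tamoxifen for these libraries. CreERT2 is Cre recombinase fused to a mutant ligand-binding domain of the human oestrogen receptor. The question put to these genes was whether their mRNA levels differed between the genotypes.

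Heat shock proteins are molecular chaperones, which bind unfolded or incomplete proteins and help them to fold. The Hsp70 proteins bind short stretches of unfolded chain, J proteins deliver clients to them, and Hsp110 proteins help to release ADP so that the cycle can start again. Hsp90 acts later in folding and holds steroid receptors, CreERT2 among them through its receptor domain, in a state that can bind ligand. Heat shock factor 1, the protein of *Hsf1*, is kept inactive by chaperones in unstressed cells and, when proteins unfold, binds inverted repeats of the bases GAA before the heat shock genes. The endoplasmic reticulum has its own Hsp70, the protein of *Hspa5* (BiP), which is under the control of the unfolded protein response. In the retina, photoreceptors renew their outer segments throughout life and so make protein at a high rate.

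Values are TPM, the relative abundance of transcripts per length of the gene, scaled to the same sum in every library, so that levels of different genes can be compared. The 9 libraries held 4.05 to 4.65 aligned gigabases, from paired reads of 150 bases. All 23 markers of retinal neurons and Müller glia passed the filter on low values, with a summed level of 38213 to 46559 TPM. *Rbpms*, which carries the knock-in, spanned 38.4 to 43.4 TPM in +/+ retinas, 31.3 to 33.1 TPM in Cre/+ retinas and 19.1 to 24.2 TPM in Cre/Cre retinas. Some libraries stood apart from the rest. In Cre/Cre replicate 1, *Rn45s*, the ribosomal RNA precursor, took 9.21% of the TPM, against 0.0827% to 0.336% elsewhere. The median ratio of its genes' TPM to their geometric means over the 9 libraries, the factor of the median-ratio scaling, was 0.918, against 0.985 to 1.03 elsewhere. *Xist*, the RNA of the inactive X chromosome, was at 2.08 to 3.16 TPM in Cre/+ replicate 3 and in Cre/Cre replicates 1 and 3, and at 516 to 585 TPM in the other 6 libraries. The Y-linked genes *Ddx3y*, *Eif2s3y*, *Kdm5d* and *Uty* were at 21.0 to 183 TPM in those low-*Xist* libraries and at most 0.548 TPM in the other 6. By expression the low-*Xist* libraries were thus male and the other 6 female, although the labels give no sex. In Cre/Cre replicate 2, 15 lens genes summed to 1459 TPM, against 27.2 to 340 elsewhere. A lower TPM in whole retina cannot tell fewer cells of a type from less RNA per cell.

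Together the 10 genes made up 0.407% to 0.538% of all TPM as deposited. Their sum was lowest in Cre/Cre replicate 1, at 4074 TPM, and highest in Cre/+ replicate 3, at 5383 TPM. *Rn45s* took 9.21% of the TPM in that Cre/Cre library, and the sum was not rescaled for it. The order of levels of the 10 genes was led by *Hsp90aa1*, *Hspa8* and *Hsp90ab1*, whose mean levels over the 9 libraries ranked 28th, 44th and 105th of all gene names. *Hspa5* followed at rank 382. *Hsph1*, *Hspa1a*, *Hspa1b*, *Dnajb1* and *Hsf1* lay close together between 51.3 and 97.3 TPM, and *Hspb1* was last at 8.1 to 12.2 TPM. The order from *Hsp90aa1* through *Hspa8*, *Hsp90ab1* and *Hspa5* to *Hsph1* was the same in 9 of 9 libraries, and of these neighbours only *Hsp90aa1* and *Hspa8* had overlapping ranges. In the middle the order was not settled. *Hsph1* was above *Hspa1a*, *Hspa1b* above *Dnajb1*, and *Dnajb1* above *Hsf1* in 6 of 9 libraries each, while *Hspa1a* was above *Hspa1b* in 9 of 9. The plot of levels by library shows these steps.

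**Figure D1:**
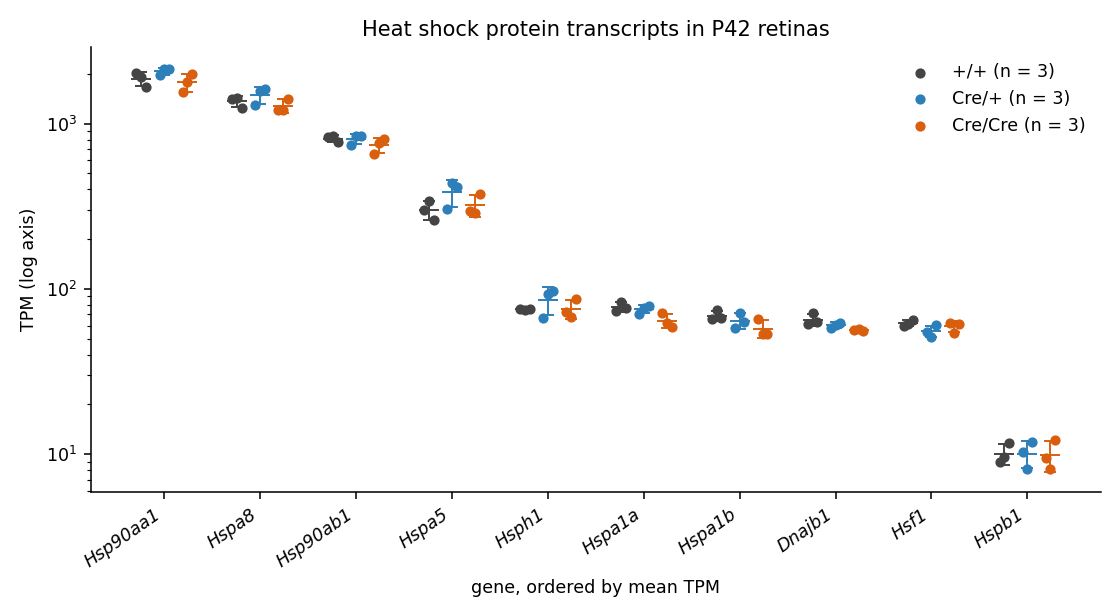
Level of each of the 10 heat shock genes in TPM on a log axis, with 1 point per library, coloured by genotype, and a bar with whiskers for the mean and SD of each genotype (n = 3). The 3 abundant genes sit between 657 and 2142 TPM, *Hspb1* sits between 8.1 and 12.2 TPM, and the points of the genotypes overlap for most genes.

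*Hsp90aa1* and *Hsp90ab1* encode the cytosolic Hsp90 proteins, the first stress-inducible and the second mainly constitutive. *Hsp90aa1* (minus strand of chromosome 12 of mm10, 110691036 to 110696395) had 2038, 1912 and 1663 TPM in +/+, 1960.0, 2141 and 2142 TPM in Cre/+, and 1565, 1779 and 1998 TPM in Cre/Cre. The genotypes overlapped, with 2 Cre/+ libraries above all others and Cre/Cre replicate 1 lowest in TPM as deposited. After median-ratio scaling +/+ replicate 3 was lowest, at 1626 against 1705 in Cre/Cre replicate 1. Against +/+, the log2 difference was 0.16 ± 0.09 (SE) in Cre/+ and -0.07 ± 0.09 in Cre/Cre, with limma adjusted p of 0.534 and 0.936. *Hsp90ab1* (minus strand of chromosome 17, 45567778 to 45573261) had 831, 837 and 770.1 TPM in +/+, 741, 836 and 837 TPM in Cre/+, and 657, 759 and 807 TPM in Cre/Cre. These ranges also overlapped, and the means were 813 ± 37.1, 805 ± 55.2 and 741 ± 76.2 TPM (SD, n = 3). The means of +/+ and Cre/Cre lay farther apart than the SD of +/+ or of Cre/+, but by less than that of Cre/Cre. Its log2 difference from +/+ was -0.02 in Cre/+ (95% confidence interval -0.19 to 0.16) and -0.14 in Cre/Cre (-0.32 to 0.04), with adjusted p of 0.960 and 0.818.

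The Hsp90 genes were also compared as a ratio. *Hsp90aa1* divided by *Hsp90ab1* was 2.45, 2.28 and 2.16 in +/+, 2.64, 2.56 and 2.56 in Cre/+, and 2.38, 2.34 and 2.48 in Cre/Cre. All 3 Cre/+ libraries lay above the other 6. The mean ratio was 2.59 in Cre/+, 2.30 in +/+ and 2.40 in Cre/Cre. This ratio was chosen after its values were seen, and with 3 libraries a genotype an exact two-sided permutation test cannot give a p below 0.1. It gave 0.1 for Cre/+ against each of the others and 0.4 for Cre/Cre against +/+, or 0.15, 0.15 and 0.4 after adjustment over the 3 comparisons. Groups without overlap always give that lowest p, so for a ratio chosen in this way the test decides nothing. The adjustment does not cover the choice of this ratio among others. For *Hsp90aa1*, 28.5% of all 150-base windows of its annotated transcripts occur unchanged in the pseudogenes *Gm12346*, *Gm5844* or *Gm5511*, which are not rows of the tables, so that reads of *Hsp90aa1* could be shared with them in the authors' counting. No window of *Hsp90ab1* was shared with another annotated gene.

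*Hspa8* (plus strand of chromosome 9, 40801276 to 40805202) encodes Hsc70, the constitutive Hsp70 of the cytosol. Its level was 1410.0, 1436 and 1252 TPM in +/+, 1290.4, 1566 and 1615 TPM in Cre/+, and 1218, 1204 and 1419 TPM in Cre/Cre. As for *Hsp90aa1*, Cre/+ replicates 2 and 3 were the highest, and every genotype overlapped every other. The log2 difference from +/+ was 0.12 ± 0.09 in Cre/+ (adjusted p = 0.636) and -0.10 ± 0.09 in Cre/Cre (adjusted p = 0.903). Of the 150-base windows of *Hspa8*, 22.8% occur unchanged in other annotated genes, mainly *Gm15459*, *Gm8355* and *Gm6210*. Those genes are not rows of the tables, so that reads of *Hspa8* could be shared with them. *Hsph1*, which encodes Hsp110 (minus strand of chromosome 5, 149616845 to 149636336), had 76.0, 74.7 and 75.5 TPM in +/+, 66.8, 93.5 and 97.3 TPM in Cre/+, and 73.0, 67.8 and 87.4 TPM in Cre/Cre. Its +/+ libraries spread over an SD of 0.658 TPM and its Cre/+ libraries over an SD of 16.6 TPM, with replicate 1 below and replicates 2 and 3 above all +/+ libraries. The adjusted p against +/+ was 0.652 in Cre/+ and 0.997 in Cre/Cre.

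*Hspa5* (plus strand of chromosome 2, 34772090 to 34776529) encodes BiP and had the largest difference from +/+ of the 10 genes. It had 299.8, 338 and 259 TPM in +/+, 303, 438 and 415 TPM in Cre/+, and 295, 289.9 and 378 TPM in Cre/Cre. The Cre/+ mean of 385 ± 71.8 TPM was 129% of the +/+ mean of 299 ± 39.4 TPM, yet Cre/+ replicate 1 lay inside the +/+ range. The log2 difference was 0.35 ± 0.16 (95% confidence interval -0.01 to 0.72, adjusted p = 0.468), and in Cre/Cre it was 0.10 ± 0.16 (adjusted p = 0.959). In the fits without 1 library the difference in Cre/+ ranged from 0.25 to 0.52, the highest without Cre/+ replicate 1, and its adjusted p was at least 0.345. *Hspa5* is shown with its promoter because that window held the only match to the endoplasmic reticulum stress element among the 6 windows read for these genes. The sequence is the 250 bases before the start site on the plus strand (chr2:34771840-34772089, RefSeq, GRCm38.p6, the assembly of mm10), in which capitals mark the match to that element, CCAAT and CCACG with 9 free bases between them, searched on both strands.
Hspa5: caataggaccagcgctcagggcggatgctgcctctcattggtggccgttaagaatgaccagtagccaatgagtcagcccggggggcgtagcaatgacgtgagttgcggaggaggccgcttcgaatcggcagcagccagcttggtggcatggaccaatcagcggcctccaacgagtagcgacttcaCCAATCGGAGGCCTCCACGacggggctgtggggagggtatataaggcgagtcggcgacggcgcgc
The match lies 65 to 47 bases before the start site, and 4 matches to the CCAAT box lie 214, 186, 98 and 65 bases before it, the last of them being the start of that element. Of 32851 promoter windows of the same table and length, 37 (0.113%) hold the element and 33.8% hold a CCAAT box. A match to these letters is a description of the sequence and not a measured site.

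*Hspa1a* and *Hspa1b* encode the stress-inducible Hsp70 of the cytosol, as near-identical neighbours on the minus strand of chromosome 17 (34969359 to 34972156 and 34956429 to 34959238). Their promoters are printed together with those of *Hspb1* and *Hsph1*, since these 4 genes hold inverted repeats of the unit that heat shock factor 1 is known to bind. Each line gives the 250 bases before the start site, 5′ to 3′ on the gene's strand, from RefSeq on GRCm38.p6, with capitals for matches to GAANNTTC or TTCNNGAA. *Hspa1a* lies at chr17:34972157-34972406, *Hspa1b* at chr17:34959239-34959488, *Hspb1* at chr5:135887669-135887918 on the plus strand and *Hsph1* at chr5:149636337-149636586.
Hspa1a: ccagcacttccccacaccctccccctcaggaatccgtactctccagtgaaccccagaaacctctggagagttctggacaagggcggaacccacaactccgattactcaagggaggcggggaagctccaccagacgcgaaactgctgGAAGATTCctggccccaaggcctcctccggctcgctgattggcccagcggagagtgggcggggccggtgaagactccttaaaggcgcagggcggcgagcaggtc
Hspa1b: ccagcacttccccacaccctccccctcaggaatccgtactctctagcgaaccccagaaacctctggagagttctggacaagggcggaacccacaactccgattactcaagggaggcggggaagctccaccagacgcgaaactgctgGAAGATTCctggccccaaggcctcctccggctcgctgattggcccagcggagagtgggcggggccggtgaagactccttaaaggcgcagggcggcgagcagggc
Hspb1: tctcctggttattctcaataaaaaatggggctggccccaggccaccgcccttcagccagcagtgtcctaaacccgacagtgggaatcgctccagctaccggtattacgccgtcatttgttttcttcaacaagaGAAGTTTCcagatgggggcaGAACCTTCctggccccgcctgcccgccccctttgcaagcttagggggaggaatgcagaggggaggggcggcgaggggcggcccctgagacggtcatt
Hsph1: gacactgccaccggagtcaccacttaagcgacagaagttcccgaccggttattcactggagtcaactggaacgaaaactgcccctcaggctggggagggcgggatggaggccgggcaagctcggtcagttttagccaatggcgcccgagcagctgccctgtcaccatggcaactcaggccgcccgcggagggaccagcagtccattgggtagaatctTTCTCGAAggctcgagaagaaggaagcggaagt
Both motifs read the same on either strand. The match of *Hspa1a* and *Hspa1b* lies 104 to 97 bases before the start, those of *Hspb1* 117 to 110 and 97 to 90 bases before it, and that of *Hsph1* 33 to 26 bases before it. Of the 10 genes, 6 had a window in the table at the start site of the deposited tables, and 4 of the 6 held an inverted pair, against 12.8% of all 32851 windows. The windows of *Hspa5* and *Dnajb1* held neither form in these 250 bases. No window was printed for *Hsp90aa1*, *Hsp90ab1*, *Hspa8* and *Hsf1*. The windows of *Hspa1a* and *Hspa1b* were 98.8% identical and differed at 3 positions counted from 1 at the 5′ end, C44T, T47C and T249G, with the base of *Hspa1a* first and none of them inside the motif.

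**Figure D2:**
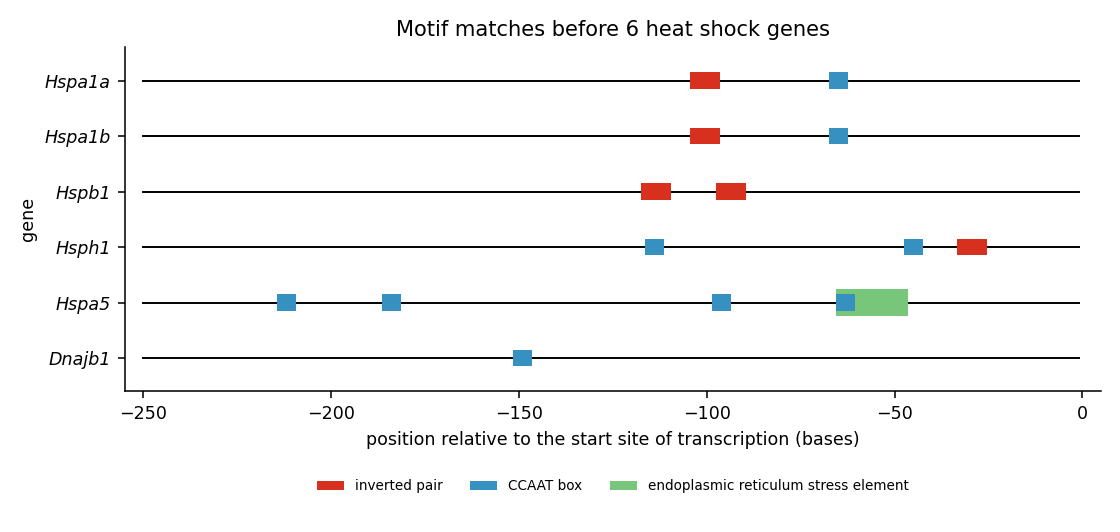
Position of motif matches in bases before the start site of transcription for the 6 genes with a promoter window, as a line of 250 bases per gene with red boxes for an inverted pair, blue boxes for a CCAAT box and a green box for the endoplasmic reticulum stress element. Inverted pairs appear in 4 of the 6 genes, and the stress element appears in *Hspa5* alone.

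The level of *Hspa1a* was 73.2, 83.4 and 76.4 TPM in +/+, 70.5, 77.0 and 79.0 TPM in Cre/+, and 71.5, 62.2 and 58.9 TPM in Cre/Cre. All 3 Cre/Cre libraries were below all 3 +/+ libraries, with replicate 1 of Cre/Cre only just so and, after median-ratio scaling, inside the +/+ range (77.9 against 71.9 to 84.6). For *Hspa1b* the values were 65.3, 74.5 and 66.4 TPM in +/+, 57.9, 71.8 and 63.3 TPM in Cre/+, and 65.7, 53.7 and 53.1 TPM in Cre/Cre, where Cre/Cre replicate 1 overlapped +/+. The Cre/Cre means were 82.7% and 83.7% of the +/+ means, with log2 differences of -0.27 ± 0.09 (95% confidence interval -0.46 to -0.09) and -0.26 ± 0.10 (-0.47 to -0.05). The unadjusted p was 0.00656 and 0.0201, and the limma adjusted p of 0.581 and 0.655 passed no limit. The unadjusted p of *Hspa1b* was 0.106 after median-ratio scaling and 0.0981, 0.0763 and 0.0792 without +/+ replicate 2, Cre/Cre replicate 2 or Cre/Cre replicate 3. The reads of these genes cannot be told apart well, since 39.7% of the 150-base windows of *Hspa1a* and 40.5% of those of *Hspa1b* are shared, nearly all of them between the pair. Summed as 1 gene, they differed by -0.27 in Cre/Cre (adjusted p = 0.606) and by -0.07 in Cre/+ (adjusted p = 0.808). They are therefore counted here as separate genes but are not independent measurements. The related gene *Hspa1l*, which shares some windows with them, was at 11.7 to 14.6 TPM.

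*Dnajb1* encodes a J protein of the cytosol, the Hsp40 that works with Hsp70 (plus strand of chromosome 8, 83608175 to 83612653). It had 61.5, 71.2 and 62.8 TPM in +/+, 58.1, 60.7 and 62.5 TPM in Cre/+, and 56.3, 57.4 and 55.9 TPM in Cre/Cre. The Cre/Cre libraries were below all others in TPM as deposited, at 56.5 ± 0.768 TPM or 86.8% of the +/+ mean of 65.1 ± 5.26 TPM. After median-ratio scaling they were at 61.4, 56.2 and 54.3, with replicate 1 inside the +/+ range of 60.4 to 72.2. The log2 difference was -0.20 ± 0.08 (95% confidence interval -0.36 to -0.03), with an unadjusted p of 0.0212 and an adjusted p of 0.655. Without +/+ replicate 2, its highest library, the difference was -0.13 and the unadjusted p 0.128. None of its 150-base windows was shared with another annotated gene.

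*Hspb1* encodes the small heat shock protein Hsp25 (plus strand of chromosome 5, 135887919 to 135889563), which binds unfolding proteins without ATP. Its level was 8.9, 9.6 and 11.7 TPM in +/+, 10.3, 8.1 and 11.8 TPM in Cre/+, and 9.4, 8.1 and 12.2 TPM in Cre/Cre, so that the genotype means of 10.1, 10.1 and 9.91 TPM were nearly equal. The 95% confidence interval of its log2 difference ran from -0.35 to 0.34 in Cre/+ and from -0.37 to 0.32 in Cre/Cre. Differences within these intervals, in either direction, can therefore not be excluded. For *Hspb1*, 39.1% of its 150-base windows occur unchanged in *Hsp25-ps1*, which is not a row of the tables, so that reads could be shared with it. *Hsf1*, the transcription factor itself (plus strand of chromosome 15, 76477362 to 76501155), lay at 62.0 ± 2.66 TPM in +/+, 55.3 ± 4.51 TPM in Cre/+ and 59.3 ± 4.63 TPM in Cre/Cre. Its values were 59.9, 61.1 and 65.02 TPM in +/+ and 54.5, 51.3 and 60.2 TPM in Cre/+, and the Cre/Cre libraries had 62.5, 54.0 and 61.5 TPM. The highest Cre/+ library lay just above the lowest +/+ library. Its log2 difference was -0.16 ± 0.09 in Cre/+ (adjusted p = 0.487) and -0.06 ± 0.09 in Cre/Cre (adjusted p = 0.941).

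In Cre/+ against +/+, 0 of the 10 genes passed an adjusted p of 0.05 in limma, where 1 gene or 0.00658% of the 15198 genes tested did. At an unadjusted p under 0.05, 0 of the 10 passed, where 10.7% of all genes did, 4.9% higher and 5.82% lower. The log2 differences ran from -0.16 for *Hsf1* to 0.35 for *Hspa5*, with 4 above and 6 below 0 and a median of -0.01, against 0.00 over all genes. In none of the 10 were the 3 Cre/+ libraries all higher or all lower than the 3 +/+ libraries, where 11.9% of all genes were higher in this way and 10.3% lower. After median-ratio scaling, *Hsf1* was lower without overlap, as were 11.1% of all genes.

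In Cre/Cre against +/+, 0 of the 10 passed the adjusted p, where 0.00658% of all genes did. At an unadjusted p under 0.05, 3 genes were lower (*Hspa1a*, *Hspa1b* and *Dnajb1*) and 0 higher, where 5.39% of all genes were lower and 1.58% higher. Lower without overlap were 2 genes (*Hspa1a* and *Dnajb1*) and higher 0, where 8.05% and 2.7% of all genes were. After median-ratio scaling, 0 of the 10 were lower or higher without overlap, where 7.2% and 6.34% of all genes were. The 10 log2 differences had a median of -0.08, with 8 below 0, against -0.02 and 57.7% below 0 over all genes. With *Xist* as a covariate, all 10 lay below 0, with a median of -0.19, and 3 passed the unadjusted limit. Over all 15198 genes that fit had 7884 below 0, a median of -0.01, and 337 higher and 452 lower at that limit. The animals with low *Xist*, male by expression, fall in the Cre/+ and Cre/Cre groups only, and all +/+ animals were female by expression. Sex was thus partly confounded with genotype, and Cre/Cre has 1 library with high *Xist*. In that library, Cre/Cre replicate 2, *Hspa1a* was at 62.2 TPM and *Dnajb1* at 57.4 TPM, below the lowest +/+ values of 73.2 and 61.5 TPM. But 1 library allows no test, and this is the library that stood apart with 1459 TPM of lens genes.

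Between the knock-in genotypes, Cre/Cre against Cre/+, 0 of the 10 passed the adjusted p, where 2 genes or 0.0132% of all genes did. At an unadjusted p under 0.05, 3 genes were lower (*Hsp90aa1*, *Hspa8* and *Hspa1a*) and 0 higher, where 4.2% of all genes were lower and 6.58% differed in either direction. Their log2 differences were -0.23, -0.22 and -0.23, each with an adjusted p of 0.740. After median-ratio scaling 1 of the 10 passed the unadjusted limit, where 658 of all 15198 genes were higher and 624 lower. *Dnajb1* was lower without overlap, as were 7.23% of all genes, and 0 of the 10 were higher, as were 4.76%. After scaling 0 of the 10 were lower without overlap, where 7.89% of all genes were. Over 0, 1 and 2 knock-in alleles, 0 of the 10 showed a trend past the adjusted p, where 0.00658% of all genes did. *Hspa1a*, *Hspa1b* and *Dnajb1* had a negative slope at an unadjusted p under 0.05, of -0.14, -0.13 and -0.10 log2 units per allele, where 4.82% of all genes did. A positive slope at that limit was seen in 0 of the 10 and in 1.42% of all genes, and a slope in either direction in 6.24%. These comparisons share libraries, so that their counts are not independent.

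**Figure D3:**
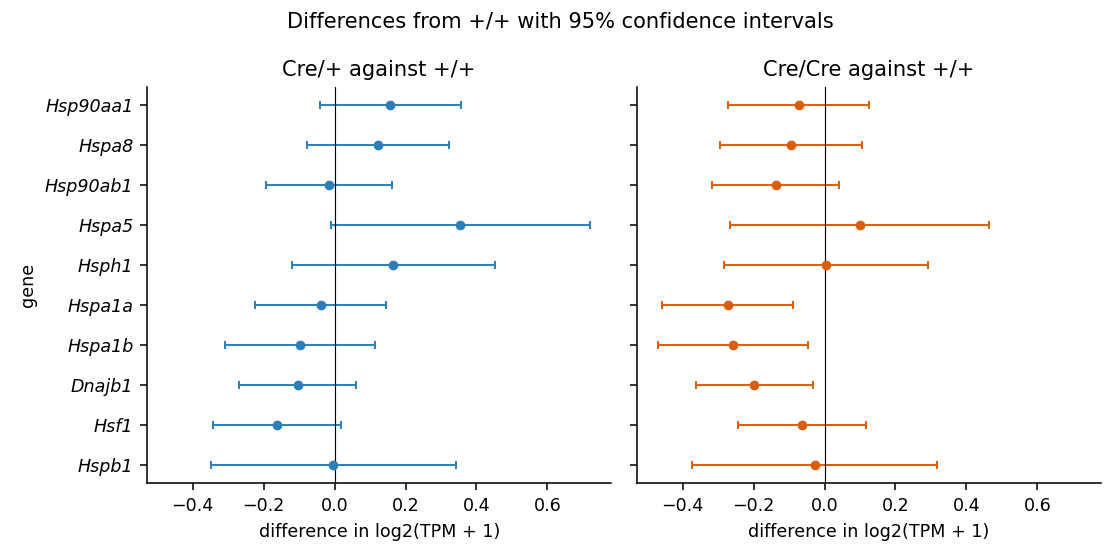
Log2 difference from +/+ on the log2(TPM + 1) scale for each of the 10 genes in Cre/+ and Cre/Cre retinas, with 95% confidence intervals from limma (3 libraries per genotype) and a line at 0. The interval lies below 0 for *Hspa1a*, *Hspa1b* and *Dnajb1* in Cre/Cre, and every other interval includes 0.

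Across the 9 libraries 8 of the 10 genes varied in 2 sets, which were formed after the values were seen, while *Hspb1* and *Hsf1* fell in neither and had r = 0.656 with each other. *Hsp90aa1*, *Hsp90ab1*, *Hspa8*, *Hspa5* and *Hsph1* varied together, with Pearson's r of log2(TPM + 1) between 0.569 and 0.885 in their 10 pairs. *Hspa1a*, *Hspa1b* and *Dnajb1* did so too, with r between 0.740 and 0.906 in 3 pairs, of which 1 pair shares sequence. The 15 pairs between the sets had r between 0.037 and 0.566. By Spearman's rho the ranges overlapped, at 0.65 to 0.90 and 0.683 to 0.867 within the sets and -0.117 to 0.717 between them. These values describe 9 libraries that share genotypes and scaling, and carry no test. After median-ratio scaling the ranges were 0.549 to 0.890, 0.845 to 0.929 and 0.0635 to 0.503.

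In the first set, *Hspa5* and *Hsph1* had their 3 highest levels in Cre/+ replicates 2 and 3 and Cre/Cre replicate 3, and *Hsp90aa1* and *Hspa8* had their 2 highest in Cre/+ replicates 2 and 3. These 3 libraries were also low in the summed level of 16 immediate early genes (*Fos*, *Egr1*, *Nr4a1* and others), whose sum was 381, 382 and 343 TPM there. In +/+ the sum was 489, 504 and 569 TPM, and in Cre/+ replicate 1 it was 568 TPM. In Cre/Cre, replicate 1 had a sum of 391 TPM and replicate 2 a sum of 724 TPM. Cre/Cre replicate 1 was thus low in the sum as well, without being among the 3 highest libraries of *Hspa5* or *Hsph1*. As deposited it had 295 TPM of *Hspa5*, 73.0 TPM of *Hsph1* and, at 1565 TPM, the lowest *Hsp90aa1*. After median-ratio scaling these values were 322, 79.5 and 1705. All 16 genes were listed. *Fos*, for one, was at 28.9, 24.4 and 22.0 TPM in the 3 libraries and at 46.6 to 94.4 TPM in the others except Cre/Cre replicate 1 (26.4 TPM). Not every gene of the list followed the sum, *Egr3*, *Egr4*, *Npas4* and *Fosl2* being among those that did not. The part of these genes in the levels of the heat shock genes was not tested. 

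**Figure D4:**
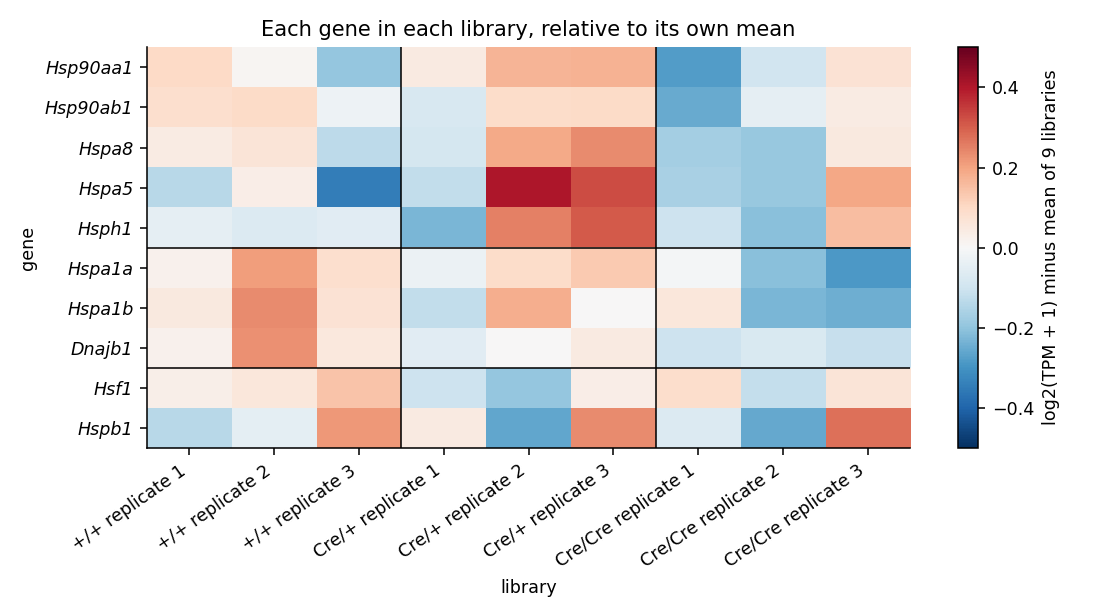
Deviation of each library from the gene's mean over the 9 libraries, in log2(TPM + 1) units, as a colour grid of 10 genes by 9 libraries grouped by genotype. Cre/+ replicates 2 and 3 and Cre/Cre replicate 3 are high for *Hspa5* and *Hsph1*, and Cre/Cre replicates 2 and 3 are low for *Hspa1a* and *Hspa1b*.

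The genes most like the members over the 9 libraries were taken by Pearson's r, as a description without a test. For *Hsp90aa1* they were *Dhdds* (r = 0.988), *Neurod4* (0.986) and *Insyn2a* (0.982). For *Hspa1b* they were *Kank4* (0.968), *E2f6* (0.922) and *Maff* (0.903), and for *Hspa5* they were *Lair1* (0.957), *Mia2* (0.954) and *Acsl3* (0.953). For *Hspb1* they were *Chac1* (0.946), *Elk4* (0.945) and *Gm16793* (0.941). These are the highest of 15198 genes tried over only 9 libraries, and after median-ratio scaling the value of *Dhdds* was 0.937.

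The wider chaperone network was followed in lists of 167 genes outside the 10, of which 154 passed the filter on low values. In both contrasts with +/+, 0 of the 154 passed the adjusted p in limma. In Cre/+, 24 of the 154 (15.6%) had an unadjusted p under 0.05, with 16 higher and 8 lower, where 10.7% of all genes did. In Cre/Cre 10 (6.49%) did, 1 higher and 9 lower, where 6.97% did. These shares of all genes, 10.7% and 6.97%, are also those to set beside the count of each list below. A gene of several lists, such as *Chordc1* or *Dnajb9*, is counted in each of them, so that the counts of the lists overlap. Without Cre/Cre replicate 1 the split in Cre/Cre was 10 higher and 7 lower, and after median-ratio scaling it was 6 higher and 5 lower, so that the direction of the network in Cre/Cre depended on that library and on the scaling. Over all genes the split in Cre/Cre was 240 higher and 819 lower, 896 and 544 without Cre/Cre replicate 1, and 551 and 716 after scaling. The count in Cre/+ moved with the model as well. With *Xist* as a covariate, 13 of the 154 were higher and 3 lower in Cre/+, where 793 and 726 of all 15198 genes were. After median-ratio scaling 20 were higher and 10 lower, where 1220 and 1188 of all genes were.

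Of 26 co-chaperones and paralogs of Hsp90, Cre/+ had 4 higher and 2 lower at an unadjusted p under 0.05, and Cre/Cre had 3 lower. These were 23.1% and 11.5%, against 10.7% and 6.97% of all genes. *Ptges3*, which encodes the p23 that stabilises Hsp90 bound to its client, had 151, 152 and 135 TPM in +/+, 158, 173 and 180 TPM in Cre/+ and 129, 139 and 152 TPM in Cre/Cre. Its log2 difference of 0.22 ± 0.08 in Cre/+ had an adjusted p of 0.404. *Stub1*, the ubiquitin ligase CHIP, was lower by 0.18 in Cre/+ (155, 170.0 and 169 TPM against 148, 145 and 143 TPM), with an adjusted p of 0.409. *Unc45a*, which helps myosin to fold, had a log2 difference of -0.20 in Cre/Cre, with an adjusted p of 0.655. *Hsp90b1*, the Hsp90 of the endoplasmic reticulum, was at 576, 569.6 and 499 TPM in +/+, 606, 684 and 734 TPM in Cre/+ and 479.6, 509.6 and 702 TPM in Cre/Cre. It was named after its values were seen, and its log2 difference of 0.30 in Cre/+ had an adjusted p of 0.458.

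Of the receptors held by Hsp90, 5 of 7 were tested, and 1 was higher in Cre/+ at an unadjusted p under 0.05. This was *Ahr*, the aryl hydrocarbon receptor, with 31.1, 30.6 and 31.5 TPM in +/+, 36.4, 36.9 and 36.7 TPM in Cre/+ and 29.3, 34.3 and 35.5 TPM in Cre/Cre (adjusted p = 0.404 in Cre/+). *Nr3c1*, the glucocorticoid receptor, lay between 44.6 and 53.2 TPM in all libraries. *Esr1*, the mouse gene for the oestrogen receptor whose human form gives CreERT2 its ligand-binding domain, lay between 1.49 and 2.43 TPM, with no separation of the genotypes.

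Of the other Hsp70 and Hsp110 genes, against 10.7% and 6.97% of all genes, 1 of 10 passed the unadjusted limit in Cre/+ and 0 in Cre/Cre. It was *Hspa13*, the microsomal Hsp70, at 38.0, 34.3 and 35.8 TPM in +/+ and 39.97, 45.3 and 43.1 TPM in Cre/+. *Hspa4l*, *Hspa2* and *Hspa12b* were named by rule and had unadjusted p of 0.0571 in Cre/+, and of 0.0852 and 0.0665 in Cre/Cre. Of 10 nucleotide exchange factors, 1 passed in Cre/+, *Sil1*, which acts on BiP (34.2, 36.8 and 38.0 TPM in +/+ and 45.9, 41.9 and 38.4 TPM in Cre/+), and 0 passed in Cre/Cre. Of 43 J proteins tested, Cre/+ had 3 higher and 1 lower, and Cre/Cre had 1 lower. These were 9.3% and 2.33%, against 10.7% and 6.97% of all genes. *Dnajb9* and *Dnajc3*, J proteins of the endoplasmic reticulum, differed by 0.27 and 0.24 in Cre/+, with adjusted p of 0.397 and 0.409. *Dnajb5* differed by -0.24 in Cre/Cre (adjusted p = 0.655). *Grpel2*, *Bag3*, *Bag4* and *Dnajc27*, also named by rule, had unadjusted p of 0.109 in Cre/+ and of 0.291, 0.216 and 0.132 in Cre/Cre.

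Of 5 small heat shock genes tested, *Hspb8*, which works with Bag3 in clearing misfolded protein, was lower at the unadjusted limit in both contrasts. It had 9.62, 13.4 and 10.1 TPM in +/+, 7.65, 8.81 and 9.12 TPM in Cre/+ and 6.25, 8.70 and 7.10 TPM in Cre/Cre, with log2 differences of -0.33 and -0.52 and adjusted p of 0.456 and 0.542. *Hspb6* differed by -0.20 in Cre/Cre (169, 186 and 167 TPM against 158, 154 and 143 TPM, adjusted p = 0.655). *Cryaa* and *Cryab*, the alpha-crystallins of the lens, which the retina also makes, were at 481 and 214 TPM in Cre/Cre replicate 2, the library with 1459 TPM of lens genes, and at no more than 110 and 99.0 TPM elsewhere. The lens list holds *Cryaa* itself.

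Of 16 chaperonin and prefoldin genes tested, Cre/+ had 2 higher and 1 lower at the unadjusted limit, and Cre/Cre had 1 of each. These were 18.8% and 12.5%, against 10.7% and 6.97% of all genes. *Pfdn4*, a subunit of prefoldin, which hands actin and tubulin to the chaperonin, had 22.1, 21.2 and 24.6 TPM in +/+, 27.0, 27.4 and 29.6 TPM in Cre/+ and 28.3, 33.0 and 34.0 TPM in Cre/Cre. All 6 knock-in libraries lay above all 3 +/+ libraries. Its log2 difference of 0.47 ± 0.10 in Cre/Cre had an unadjusted p of 0.000167 and the smallest adjusted p of the network, 0.181, and in Cre/+ the difference was 0.30 (adjusted p = 0.377). *Hspe1*, the mitochondrial Hsp10, differed by -0.20 in Cre/Cre (103, 117 and 98.7 TPM against 95.6, 90.3 and 91.1 TPM, adjusted p = 0.655). *Vbp1*, another prefoldin subunit, differed by 0.22 in Cre/+ and 0.04 in Cre/Cre.

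Of 9 heat shock factors and partners tested, 1 was higher in Cre/+ at the unadjusted limit and 0 differed in Cre/Cre. *Hsf2*, a factor that can assemble with heat shock factor 1, had 59.4, 50.5 and 49.6 TPM in +/+, 60.7, 64.2 and 68.4 TPM in Cre/+ and 49.0, 55.3 and 60.7 TPM in Cre/Cre (adjusted p = 0.390 in Cre/+). Of 23 other genes that heat shock factor 1 induces in heat shock, Cre/+ had 1 higher and 3 lower at that limit. Cre/Cre had 4 lower. This was 17.4% in each genotype, against 10.7% of all genes in Cre/+ and 6.97% in Cre/Cre. *Ubb*, a polyubiquitin gene, differed by -0.22 in Cre/+ and -0.20 in Cre/Cre, with adjusted p of 0.377 and 0.634. *Hsbp1l1*, *Ier5* and *Hsf4* had unadjusted p of 0.102 in Cre/+ and of 0.145 and 0.220 in Cre/Cre. *Chordc1*, a partner of Hsp90, differed by 0.28 in Cre/+ (adjusted p = 0.409).

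Of 28 genes of the unfolded protein response of the endoplasmic reticulum other than *Hspa5*, 6 were higher and 2 lower in Cre/+ at the unadjusted limit (28.6%, against 10.7% of all genes), and 0 higher and 1 lower in Cre/Cre (3.57%, against 6.97%). Among the 6 higher in Cre/+ were *Hsp90b1*, *Dnajb9* and *Dnajc3*, whose values are given above, and *Pdia3*, *Canx* and *Atf6*, named after their values were seen, with log2 differences of 0.27, 0.25 and 0.21 and adjusted p of 0.415, 0.414 and 0.449. *Atf4*, a transcription factor of the response, differed by -0.20 in Cre/+ and -0.18 in Cre/Cre, with adjusted p of 0.421 and 0.715. *Syvn1*, an E3 ligase of the endoplasmic reticulum, differed by -0.14 in Cre/Cre (adjusted p = 0.799). The median log2 difference of the list was 0.02 in Cre/+ and -0.02 in Cre/Cre, against 0.00 and -0.02 over all genes. This list was not counted on its own in the alternative fits.

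**Figure D5:**
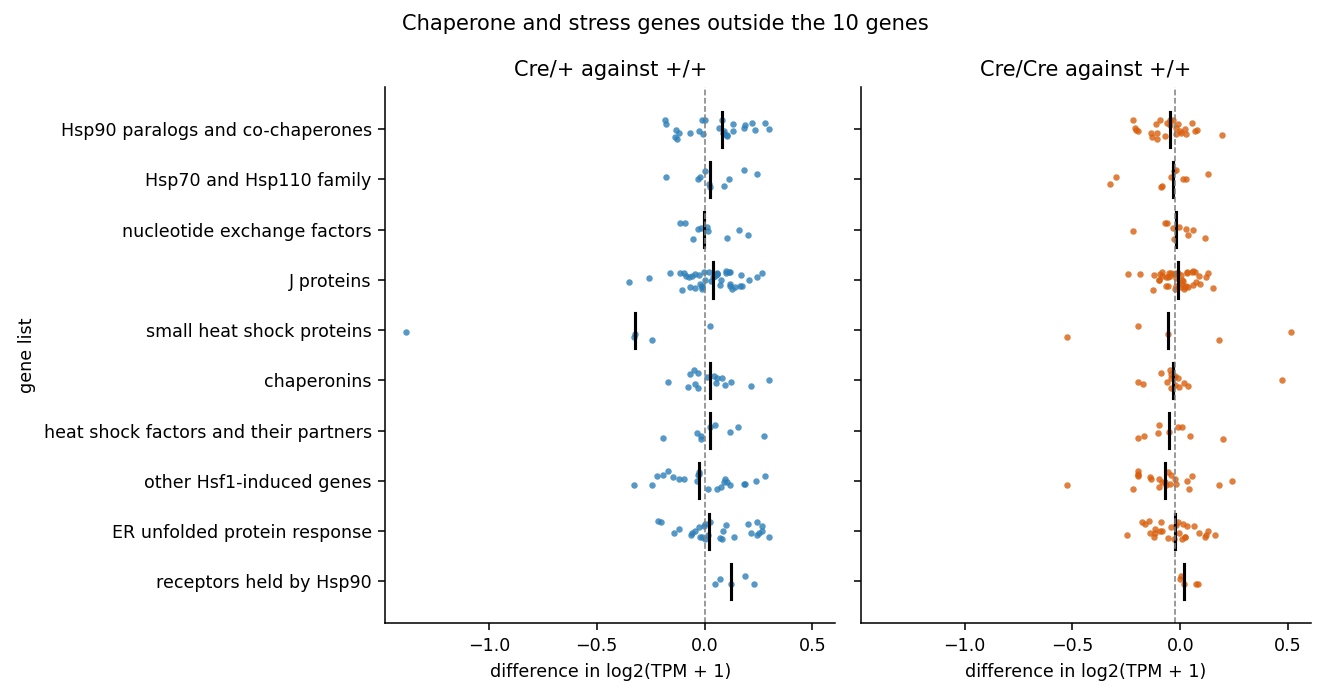
Log2 difference from +/+ on the log2(TPM + 1) scale for the tested genes of the 10 lists of the chaperone network, with 1 point per gene (a gene of several lists has a point in each), a bar at each list's median and a dashed line at the median of all genes tested, for Cre/+ on the left and Cre/Cre on the right. The list medians run from -0.32 to 0.12 on the left and from -0.07 to 0.02 on the right, and the point farthest from 0 is a small heat shock gene in each panel, *Cryaa* at -1.39 in Cre/+ and *Hspb8* at -0.52 in Cre/Cre.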

How the data were processed

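The authors trimmed reads with Trimmomatic, checked them with FastQC, aligned them to mm10 with HISAT2, converted the output with SAMtools and quantified genes with StringTie. Versions and annotation are not given in the sources used here. The deposited tables hold TPM, FPKM and coverage per gene without read counts, and the authors' DESeq2 test was left out. Genotype and replicate number came from the labels.

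Rows of a gene name were added up in TPM. Tests covered the 15198 of 25239 genes whose mean TPM reached 1, in limma 3.58.1 (R 4.3.3, trend and robust prior) on log2(TPM + 1), a scale that understates changes of low genes. The model held all 9 libraries and genotype alone, with 6 residual degrees of freedom, and a second model took the number of knock-in alleles (0, 1 or 2). Adjusted p (Benjamini-Hochberg, over all genes) had a limit of 0.05. The p-values measure the spread between mice, 3 per genotype. The median standard error was 0.11.

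The members and lists were chosen with earlier results of these data known. Named beyond the 10 genes were, in each list, the 2 genes of lowest unadjusted p in either contrast with +/+, and the 3 most correlated genes of 4 members. Of these, 1 gene is not reported here. Promoters came from RefSeq (GRCm38.p6), and shared 150-base windows from GENCODE transcripts of GRCm38. Depth came from coverage divided by FPKM. The script was tested on simulated data. Alternatives were another pseudocount, no filter, a replicate block, *Xist* as a covariate, fewer libraries, median-ratio scaling, FPKM, *Rn45s* left out, *Hspa1a* and *Hspa1b* summed, and no robust prior. Scaling together with *Xist* was added after the data were seen. Plots used matplotlib 3.10.9 (Python 3.11.15).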

Additional observations from a re-analysis of the deposited data

How the results depend on the processing

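The count of heat shock genes past the adjusted p was 0 under all alternatives and without each library in turn, in each contrast and the trend, and so was the count of the 154 network genes in both contrasts with +/+. In the contrasts with +/+, the smallest adjusted p of a member over these fits was 0.254 (*Hsf1* in Cre/+, with median-ratio scaling and *Xist* as a covariate). *Hspa1a*, *Hspa1b* and *Dnajb1* stayed below +/+ in Cre/Cre under every alternative. With median-ratio scaling 2 of the 10, without *Hspa1b*, had an unadjusted p under 0.05 in limma, both lower. Of all 15198 genes, 551 were higher and 716 lower at that limit. Some signs turned, and the cause was not tested. In Cre/Cre, *Hspa5* went from 0.10 to -0.027 with *Xist* as a covariate and to -0.018 with scaling as well, *Hsph1* from 0.0042 to -0.17, to -0.16 and, with FPKM, to -0.046, and *Hspb1* from -0.027 to 0.014 with *Rn45s* left out.

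Without 1 library, the log2 difference in Cre/+ ranged from -0.054 to 0.043 for *Hsp90ab1*, from -0.081 to 0.012 for *Hspa1a* and from -0.12 to 0.13 for *Hspb1*. In Cre/Cre it ranged from -0.16 to 0.016 for *Hsp90aa1*, from -0.023 to 0.19 for *Hspa5*, from -0.17 to 0.093 for *Hspb1*, from -0.099 to 0.082 for *Hsph1* and from -0.10 to 0.00052 for *Hsf1*.

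Same-numbered libraries did not deviate together (correlations of -0.116 to 0.128), while pairs of unlike number had -0.194 to 0.261. With 3 libraries a genotype this check cannot exclude that the numbers pair them. With the replicate number as a block the counts were still 0. The standard errors were 0.08 to 0.16 for the 10 genes, with 3 libraries a genotype. Differences anywhere within the intervals given can therefore not be excluded, and TPM give no counting error.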
